A study of Homo sapiens with 7 samples.

Results

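The RAB small GTPases are the genes of the deposited table whose symbol is RAB followed by a number and at most 1 letter. The rule found 59 of the 24721 genes, on 61 of the 25918 transcripts, since RAB8A and RAB35 have 2 transcripts each, and all 61 are coding. The rule uses the symbol and no measured value, but the members were chosen with earlier results of these data known. N6-methyladenosine (m6A) peaks were mapped in untreated cells labelled HepG2, an established line from a human hepatocellular carcinoma, grown in DMEM with 10% serum. RNA fragments of about 100 nt were precipitated with an antibody against m6A in 4 libraries, and 3 input libraries had no antibody step. The values are 1 table for all 7 libraries. They give no depth, no replicate spread and no test of precipitate against input, so no p-value is given, and intervals (95% Wilson) cover counting error only.

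RAB proteins are molecular switches that cycle between a GTP-bound state on membranes and a GDP-bound state in the cytosol, and each marks its own set of vesicles or organelles. Exchange factors load them with GTP, GTPase-activating proteins switch them off, effectors such as tethers and motor adaptors bind the active form, and a lipid anchor added to C-terminal cysteines holds them on the membrane. m6A is placed on adenosine in the consensus RRACH (A or G, A or G, A, C, then A, C or T), is often found near stop codons and is known to influence the stability and translation of messenger RNA.

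The labelled cell type was not borne out by its defining genes. Of 12 liver markers, 6 were tied at the lowest expression quantile of the table, 0.314, among them ALB, AFP, APOB and TTR, and the highest was FGB at 0.619. Of 7 markers of ovarian or Müllerian epithelium, MSLN was at 0.968, MUC16 at 0.667 and SOX17 at 0.648. PAX8 was at 0.496, EMX2 at 0.374, WT1 at 0.333 and WFDC2 at 0.314. The values below are therefore those of the library set labelled HepG2. The expression quantile is a fraction from 0 to 1 that ranks transcripts. Whether it is per transcript length, and which libraries gave it, was not given in the sources used here. Each peak score is the authors' own, with no stated scale.

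Sequences near the highest-scoring RAB peaks are given to show the consensus in its setting. Fragments were about 100 nt long, so a peak does not single out 1 base. For each of these peaks a 21-nt stretch around the nearest RRACH, or for RAB35 the nearest GGACT, is given 5′ to 3′ as DNA letters of the transcript strand, with the RRACH or GGACT letters in capitals, from GENCODE release 29 (GRCh38). RAB30, at a score of 4.11, is missing because its nearest RRACH was 79 nt away.
RAB8B: ctgaacttAGACCtctcaaca
RAB35: cgccgagcGGACTgattcgca
RAB3D: gaccatggGGACTcagctctg
RAB22A: ttctccaaAGACTgcagcaat
RAB33B: gtacccacAGACTtggcacaa
The RAB8B site is at chr15:63263732-63263752 (plus strand), in the 3′ UTR 123 nt after the stop codon and 21 nt from the peak, which scored 5.36. The RAB35 site is at chr12:120096968-120096988 (minus strand), in the 3′ UTR 267 nt after the stop codon and 21 nt from a peak of 4.82, which has another RRACH (GGACC) at 8 nt. The RAB3D site, at chr19:11325178-11325198 (minus strand), lies in the 3′ UTR 13 nt from a peak of 4.59. All of the first 3 are 3′ UTR sites. The RAB22A site, at chr20:58359849-58359869 (plus strand), is a 3′ UTR site 9 nt from a peak of 4.53. The RAB33B site, at chr4:139472908-139472928 (plus strand), is the only coding one of these 5. It lies 208 nt before the stop codon and 8 nt from a peak of 4.42.

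Peaks were listed for 26 of the 61 RAB transcripts (42.6%, 24 of 59 genes), against 27.9% of all transcripts and 35.0% of coding ones. Above the lowest quantile it was 26 of 54 (48.1%) against 40.7%, and with a peak of score 3 or more 20 of 61 (32.8%) against 19.3%. The 24 genes with a peak had quantiles from 0.548 to 0.958 (median 0.812), and the 35 without one from 0.314 to 0.979 (median 0.580). The ranges overlap, and the 3 most expressed members had no peak. Over all coding genes the median was 0.803 for those with a peak. For genes without a peak above the lowest quantile it was 0.549, and 0.647 for the 28 such RABs. At quantiles of 0.5 or more, 26 of 47 RAB transcripts had a peak (55.3%, 41.2 to 68.6%), against 58.5% of coding transcripts. At 0.8 or more it was 15 of 22 (68.2%, 47.3 to 83.6%) against 70.4%. Set beside transcripts of like expression, the RAB share is near the background and is not a result about the family. By bins of 0.1 it was 2 of 8 from 0.5, 6 of 9 from 0.6, 3 of 8 from 0.7, 7 of 9 from 0.8 and 8 of 13 from 0.9, with wide intervals in each.

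**Figure D1:**
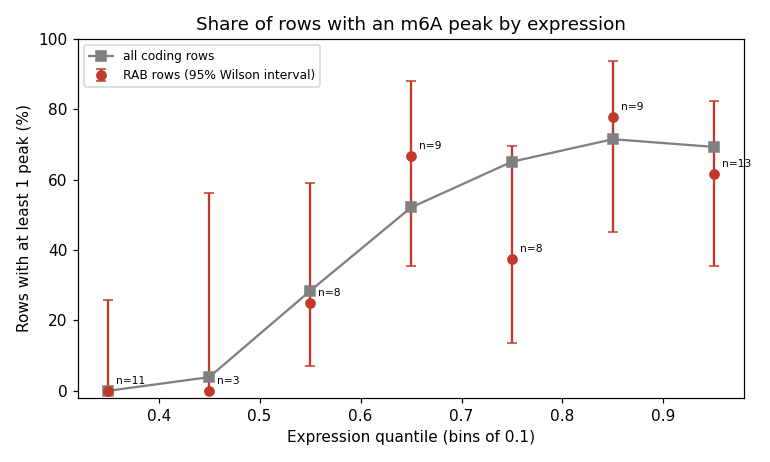
Share of transcripts with at least 1 peak (%) against expression quantile in bins of 0.1. Red points are RAB transcripts with 95% Wilson intervals and their number, and grey squares are all coding transcripts. The RAB share was 77.8% from 0.8 to 0.9 and 37.5% from 0.7 to 0.8, and the grey value lies inside the red interval in every bin.

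Among the 24 genes with peaks, 13 had 1, 8 had 2, RAB8A and RAB20 had 3, and RAB40C had 4. Scores ran from 2.00 to 5.36 with a median of 3.09, against 3.15 for all peaks of coding transcripts. Of the 42 peaks, 7 scored 4 or more (16.7%, against 24.4% of all coding peaks), and they belonged to 6 genes. These were RAB8B, RAB35, RAB3D, RAB22A, RAB33B and RAB30.

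The RABs are described by compartment. Of all genes 29.1% had a peak, but that share includes noncoding genes and those at the lowest quantile. Of coding transcripts at quantiles of 0.5 or more, 58.5% had one. This is the nearer background for groups without low quantiles, such as the early endosome, whose lowest was 0.611. The groups are small and differ in expression, and differences between them were not tested. The endosomal RABs were marked in 6 of 11 genes of the early endosome. RAB5A, which drives fusion of early endosomes, had 1 coding sequence peak in exon 2 (score 2.92, quantile 0.754). RAB21, a regulator of integrin traffic, had a start peak at position 91 (3.93) and a stop codon peak at position 893 (3.56), at a quantile of 0.801. RAB22A, which acts in endosomal sorting, was less expressed (0.611) and had a start peak (2.80) and a stop codon peak (4.53). RAB31, a close relative of RAB22A, had 1 stop codon peak of 2.76 at 0.904. RAB17, an epithelial RAB, had a peak in the 5′ UTR at position 273 (3.46) and another in the 3′ UTR (2.97) at 0.875. RAB20, found on endosomes and phagosomes, had 3 peaks in 1 exon of 1132 nt, with scores of 2.11, 2.04 and 3.03 from 5′ to 3′, at 0.678. RAB5B, RAB5C, RAB4A, RAB4B and RAB14 had none, at 0.869, 0.979, 0.769, 0.670 and 0.747. RAB5C was thus the most expressed member and carried no listed peak, while the less expressed RAB5A and RAB22A did.

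The 3 expressed members of the late endosome and lysosome group all had peaks. They were at quantiles of 0.8 or more, where 70.4% of coding transcripts had one. RAB7A, the main RAB of late endosomes, had only a start peak (2.50 at position 99) at a quantile of 0.949. RAB9A, which acts in transport from late endosomes to the Golgi, had a coding sequence peak of 3.66 at 0.823. RAB24, linked to autophagy, had a weak start peak (2.20) and a stop codon peak of 3.95 at 0.927. The remaining member, RAB9B, was at the lowest quantile and had no peak. RAB7A and RAB24 thus shared a start peak, and RAB9A had none there.

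RABs of recycling and of delivery to the plasma membrane were marked in 5 of 10 genes. RAB8A, which directs vesicles to the cell surface and cilium, had 3 peaks at a quantile of 0.954, of 2.91 around the stop codon and of 2.01 and 3.64 in the 3′ UTR. Its relative RAB8B, at only 0.548, had the highest score of the family (5.36 around the stop codon) and a start peak of 2.88. RAB8B was the least expressed RAB with a peak and RAB8A the second most expressed. RAB35, a RAB of fast endosomal recycling, had 2 peaks in its 3′ UTR, of 4.82 and 2.02, at 0.905. RAB10, which acts in GLUT4 and basolateral traffic, and RAB11A, the main RAB of recycling endosomes, had only start peaks, of 3.31 at position 97 and 3.31 at position 89, at 0.828 and 0.746. Without a peak were RAB11B (0.971), RAB13, a RAB of tight junctions (0.932), RAB12 (0.753), RAB15 (0.580) and RAB25 (0.314).

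The ER and Golgi RABs had peaks in 5 of 18 genes (27.8%), near the share of all genes, and 3 of the 18 were at the lowest quantile. RAB33B, a Golgi and autophagy RAB, had a coding sequence peak of 4.42 at 0.572, and RAB30, a Golgi RAB, a stop codon peak of 4.11 at 0.613. RAB34 had a start peak (3.38) and a stop codon peak (2.97) at 0.958. RAB6A, which acts in transport within and from the Golgi, had a start peak of 2.27 at 0.723, and RAB18, a RAB of the ER and lipid droplets, one of 2.39 at 0.648. RAB1B, RAB2A and RAB1A, which act in transport between ER and Golgi, had none, at quantiles of 0.971, 0.931 and 0.852. Of coding transcripts at 0.8 or more, 70.4% had one. All 4 genes of the RAB1 and RAB2 pairs were unmarked, the fourth being RAB2B at 0.577. Also without a peak were RAB43 (0.584), RAB6B (0.572), RAB36 (0.440), RAB41 (0.436), RAB33A (0.389) and RAB39 (0.362).

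Secretory RABs and those of lysosome-related organelles had peaks in 3 of 10 genes. RAB3D, a RAB of secretory granules, had 1 peak of 4.59 in the 3′ UTR at 0.827. RAB26, also of secretory granules, had 2 in the 3′ UTR, of 3.51 and 2.37, at 0.871. RAB27B, which acts in granule and exosome secretion, had a stop codon peak of 3.54 at 0.600. RAB32 (0.749), RAB3A (0.668) and RAB27A (0.626) were more expressed than RAB27B and had none, nor had RAB3B (0.370) and RAB37 (0.355). In the remaining group of 6, RAB40C, a substrate adaptor of a ubiquitin ligase, had 4 peaks in 1 last exon of 1931 nt, of 3.14 around the stop codon and of 3.00, 2.29 and 3.92 in the 3′ UTR, at 0.859. RAB42 had 1 of 3.63 around the stop codon at 0.607. RAB40B (0.778), RAB23, a RAB of ciliary signalling (0.599), RAB28 (0.565) and RAB40A (0.476) had none.

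**Figure D2:**
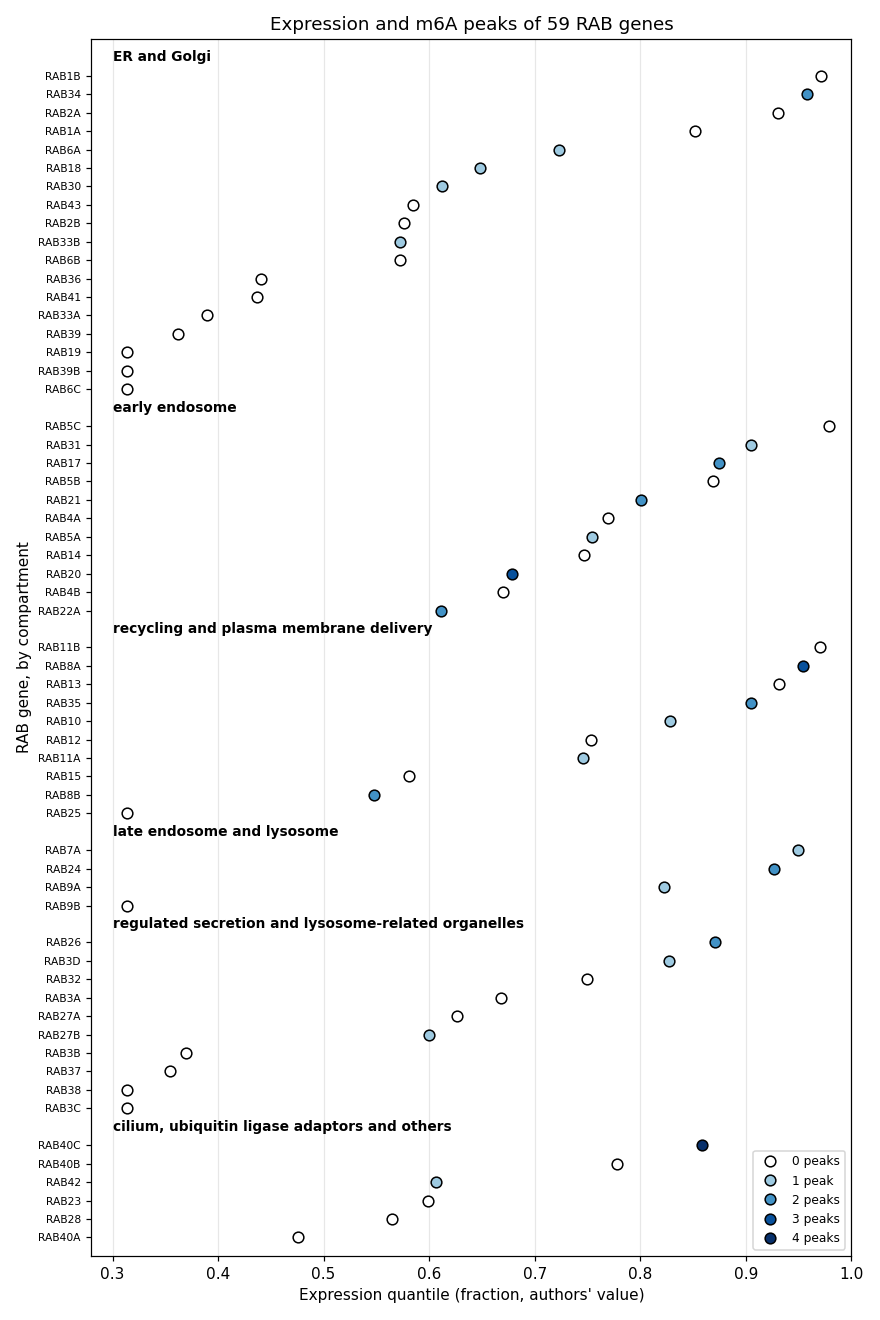
Expression quantile of the 59 RAB genes, grouped by the compartment they are known for, with circles shaded by the number of peaks (white for none). RAB8A and RAB35 are shown by the transcript with more peaks. RAB5C, RAB1B and RAB11B stand at the right end with white circles, at 0.979, 0.971 and 0.971, while RAB8B is shaded at 0.548.

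The 7 transcripts at the lowest quantile, those of RAB3C, RAB6C, RAB9B, RAB19, RAB25, RAB38 and RAB39B, had no peak, nor had any other of the 8139 transcripts tied there. An unmarked member at a low quantile is therefore not shown to lack m6A. RAB25 is a RAB of epithelial cells and RAB38 a RAB of melanosomes.

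Of 13 sets of RABs with the same number, 8 held both genes with and without a peak, 1 (RAB8A and RAB8B) was marked throughout and 4 (the RAB1, RAB2, RAB4 and RAB39 pairs) had no peak. With 24 of the 59 genes marked, mixed sets are no result about relatedness. Some unmarked relatives were at quantiles where peaks are hardly listed, as RAB9B at the lowest one and RAB33A at 0.389, in a bin with a peak in 1 of 6337 coding transcripts. In 5 of the 8 mixed sets the most expressed gene was the marked one, as in RAB6A (0.723) against RAB6B (0.572) and RAB6C (0.314), and in RAB3D, RAB9A, RAB33B and RAB40C. In the other 3 it was not. RAB11B (0.971) was unmarked beside RAB11A (0.746), RAB5B (0.869) and RAB5C (0.979) beside RAB5A (0.754), and RAB27A (0.626) beside RAB27B (0.600).

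The paralogs allow the site itself to be compared, since their coding sequences can be aligned. A coding site near the peak is given for RAB27B, RAB33B and RAB9A, each followed by the aligned stretch of the unmarked relative, with the 5 aligned positions in capitals. The RAB27B site is the GGACT nearest to its peak, at 25 nt, and another RRACH (GAACA) lies at 3 nt. That nearer RRACH was not compared with RAB27A, whereas RAB33B and RAB9A are shown by their nearest RRACH. The RAB27B transcript also had the largest start shift of the RABs, 410 nt, so its placement is the least certain.
RAB27B: acccttttGGACTtaatcatg
RAB27A: atgcttctGGACCtgataatg
RAB33B: gtacccacAGACTtggcacaa
RAB33A: gtgccctcCAACTtagccctg
RAB9A: cagatttgGGACAcggcaggt
RAB9B: cagatctgGGACActgcaggg
The stretches are at chr18:54889282-54889302 (plus strand) and chr15:55205627-55205647 (minus strand) for RAB27B and RAB27A. Those of RAB33B, given above, and RAB33A (chrX:130184507-130184527, plus strand) follow, then RAB9A (chrX:13708921-13708941, plus strand) and RAB9B (chrX:103825590-103825610, minus strand). RAB27A shared 15 of the 21 bases and kept an RRACH in place of the GGACT of RAB27B. RAB33A shared 13 of 21 and had no RRACH at the aligned place or in the stretch. RAB9B shared 18 of 21 and kept the same 5 letters. Over the aligned coding sequences, identity was 68.7%, 66.4% and 71.6%. RAB27A and RAB27B were at like quantiles, whereas RAB33A (0.389) and RAB9B (0.314) were expressed far lower than their partners. What these letters contribute was not tested.

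The share of RAB peaks in the coding sequence was below that of all peaks, and the share at the start was above it. Around the stop codon and in the 3′ UTR the RAB shares were higher too, but their intervals hold the shares of all peaks. The segment shares are parts of 1 whole, so a lower coding share goes with higher shares elsewhere. By the authors' segments, 10 of the 42 (23.8%, 13.5 to 38.5%) were at the transcript start, against 12.5% of all peaks of coding transcripts, and 14 (33.3%, 21.0 to 48.4%) around the stop codon, against 27.6%. A further 12 (28.6%, 17.2 to 43.6%) were in the 3′ UTR, against 20.5%, and 1 was elsewhere in the 5′ UTR. Only 5 (11.9%, 5.19 to 25.0%) were in the coding sequence, against 36.6%. The difference was not tested, because peaks of 1 transcript share their source. RAB coding sequences are short, with a median of 642 nt over the 59 GENCODE models. At quantiles of 0.8 or more the median was 624 nt for 15 RAB models against 1260 nt over 3699 models. The part of coding length in the segment shares was not tested. Of 19965 coding transcripts, 7.77% had a start peak and 30.8% a peak elsewhere. Of the 59 RAB genes, 10 had a start peak and 19 a peak elsewhere, 5 of them both. The former shares are per transcript and the RAB counts per gene. Both cover all quantiles, and no value at like expression is given.

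**Figure D3:**
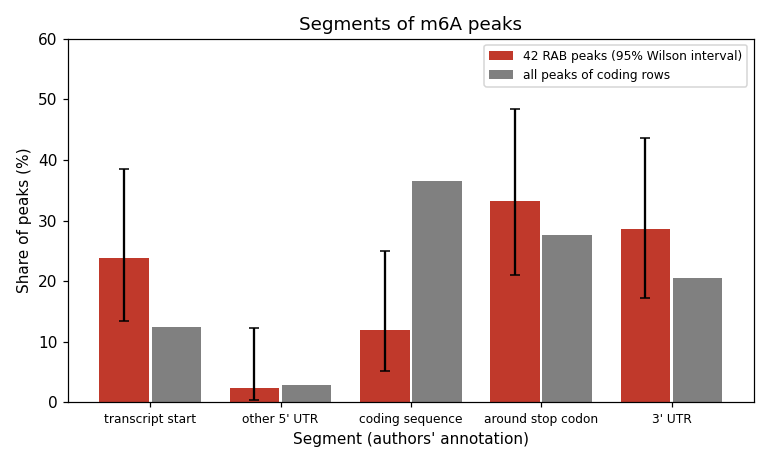
Share of peaks (%) in each segment of the authors' annotation, red for the 42 RAB peaks with 95% Wilson intervals and grey for all peaks of coding transcripts. The red bar for the coding sequence reaches 11.9% against 36.6%, and the one for the transcript start 23.8% against 12.5%.

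The scores of RAB start peaks ran from 2.20 in RAB24 to 3.93 in RAB21 (median 2.84), against a median of 3.34 for the RAB peaks around the stop codon, and the ranges overlapped. Over all coding transcripts the medians were 2.73 and 3.45. In RAB8B, RAB22A and RAB24 the start peak scored lower than the stop codon peak, in RAB21 and RAB34 higher.

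Apart from the start, RAB peaks were found in long terminal exons. Of the 31 peaks after exon 1, 30 lay in exons of 400 nt or more, from 426 nt in RAB34 to 7902 nt in RAB22A. The exception was RAB5A, whose exon 2 has 256 nt. Among all coding transcripts 7.66% of peaks after exon 1 lay in exons under 400 nt, which is near the RAB share of 3.23%. RAB genes offer few long internal exons. The longest internal exon had a median of 145.5 nt over the 52 models with one. Only 1 model had an internal exon of 400 nt or more. The same length over all coding genes is not given here, and the part of exon length in where RAB peaks lay was not tested.

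Positions could be carried to GENCODE transcripts for 38 of the 42 RAB peaks, and 27 of these (71.1%) lay in the last exon, near the 65.0% of all 9249 peaks carried over. Of the 27, 20 were after the stop codon and 7 before it. Their distance from the stop codon ran from 409 nt before it (RAB9A) to 1376 nt after it (RAB35), with a median of 144 nt after it. Of the 6 genes with a score of 4 or more, 5 had that peak a short way into the 3′ UTR. RAB30 was 97 nt after the stop codon, RAB8B 144, RAB22A 147, RAB3D 223 and RAB35 246, while RAB33B was 216 nt before it. The paralogs RAB8A and RAB8B both had a peak there, 54 and 144 nt after the stop codon. Those upstream were in RAB9A, RAB20, RAB33B, RAB42, RAB27B and RAB21.

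**Figure D4:**
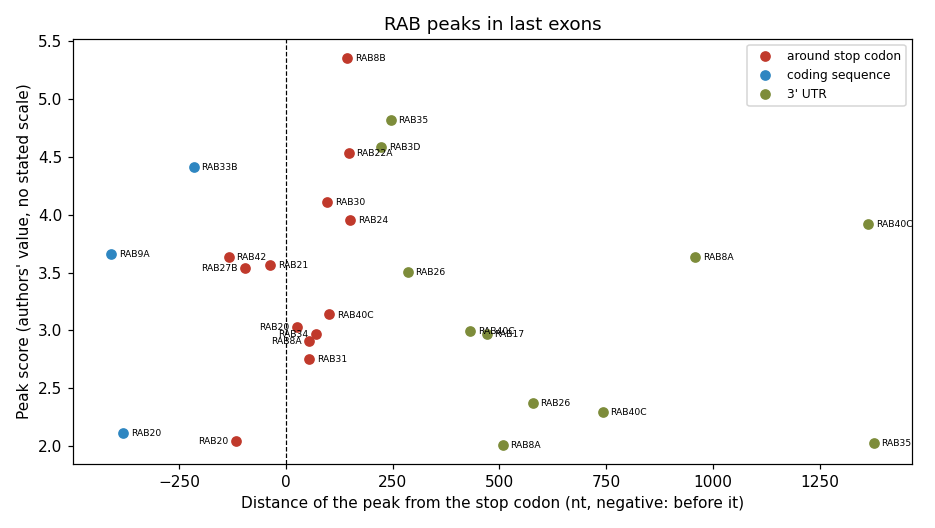
Peak score against the distance of the peak from the stop codon (nt, dashed line at 0) for the 27 RAB peaks in last exons, coloured by segment. RAB8B, RAB35, RAB3D and RAB22A, between 144 and 246 nt after the stop codon, stand highest with scores from 4.53 to 5.36.

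Both transcripts of RAB8A and both of RAB35 had listed peaks. The second RAB35 transcript (quantile 0.901) had 1 peak of 4.64 in a last exon of the same 2274 nt. Its position, 1109, is 112 nt beyond the 997 of the first transcript, and the authors' segment was coding sequence there and 3′ UTR in the first. The second RAB8A transcript (0.954) had peaks of 2.00 and 2.77 in a last exon of the same 1424 nt, 891 nt apart, against 905 nt between the outer peaks of the first. Whether these 3 peaks mark further sites was not tested, and 39 peaks are left with 1 transcript per gene. The segment shares were then 25.6% at the start, 10.3% in the coding sequence, 33.3% around the stop codon and 28.2% in the 3′ UTR.

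An RRACH lay within 50 nt of 33 of the 38 RAB peaks (86.8%), against 89.4% of all 9249 peaks carried over in the same way. Windows 300 nt away on the same transcripts had one in 78.9% and 76.6%. Other listed peaks were not kept out of these control windows, and some, as in RAB40C and RAB26, fell on one. The control shares here are therefore not those of peak-free sequence. Outside the transcript start an RRACH was near 26 of 28 RAB peaks (92.9%) against 93.7%, with control windows at 82.1% and 75.9%. At the start it was 7 of 10 against 63.1% of 1288. There the control windows had one as often or more often, in 70.0% and 81.1%. The median distance to the nearest RRACH outside the start was 10 nt for RAB peaks and 12 nt for all. GGACT was within 50 nt of 7 of the 28 RAB peaks outside the start (25.0%) against 30.2%, with control windows at 14.3% and 10.4%. Around the stop codon it was near 2 of 13 RAB peaks (15.4%, the same as in their control windows), against 30.8% of all such peaks and 11.1% of their control windows. The RRACH shares of the family were near those of all peaks, and the GGACT shares outside the start were lower, on few peaks and without a test. Start peaks of RAB6A, RAB11A and RAB18 had no RRACH within 50 nt, nor had the 3′ UTR peak of RAB17 or the stop codon peak of RAB30. With T also allowed as the first base (DRACH), those of RAB18, RAB17 and RAB30 had a motif at 9, 1 and 0 nt. Those of RAB6A and RAB11A still had none within 50 nt. The motif near the start peak of RAB21 is a GGACT 6 nt from it (chr12:71754952-71754972, plus strand, 5′ UTR), shown because RAB21 has the strongest RAB start peak.
RAB21: tcattctcGGACTttccctca
RAB20, whose 3 peaks share 1 exon, had an RRACH within 10 nt of each, and 2 of the sites are coding and 1 is in the 3′ UTR.
RAB20, first: gccagcaaAGACTgcctcttt
RAB20, middle: cctgtttgAGACCctctttga
RAB20, last: ctggactcAGACTgtgcatgt
They are at chr13:110524046-110524066, chr13:110523774-110523794 and chr13:110523630-110523650 on the minus strand, with the A of the motif 391 and 119 nt before and 25 nt after the stop codon.

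The regulators of RABs, a term that here includes their effectors, had a listed peak in 71 of 129 genes (55.0%), against 29.1% of all genes. With a peak of score 3 or more it was 59 (45.7%), against 20.1%. At quantiles of 0.5 or more it was 65.1% of 109, against 58.5% of coding transcripts, and at 0.8 or more 71.4% of 35, against 70.4%. Exchange factors had peaks in 23 of 36 genes. The highest scores were those of DENND5B (5.49, 3 peaks), FAM116A, now DENND6A (5.09), and RABIF (5.07), while SBF1 had none at 0.946. GTPase-activating proteins had peaks in 23 of 37, led by TBC1D9B (6.06, 3 peaks), TBC1D9 (5.49) and TBC1D10B (5.32), with none in SGSM3 at 0.932. Of 49 effectors 22 had a peak, with MICALL2, which binds RAB8 and RAB13, at 7.63, UNC13D, a RAB27 effector of granule release, at 5.77 and RABEP1, a RAB5 effector, at 5.26. M6PRBP1, now PLIN3, had none at 0.965. Of the 7 genes for prenylation, escort and extraction 3 had one, among them CHML, a RAB escort protein, at 4.54 and RABAC1 at 2.27, while GDI2 had none at 0.882. The top score of each of the first 3 lists, but not of the last, was above 5.36, the top score of the RABs.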

How the data were processed

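m6A immunoprecipitation and input libraries (4 and 3) were grouped by their titles, but the deposited table holds no column of a single library, so depth is unknown and no comparison between groups was made. Per the file headers, the authors give an expression quantile, a fraction from 0 to 1, and for each peak its position, exon number, exon length, segment and score. The authors' score has no stated scale and was used only to rank and filter. Aligner, peak caller, annotation and build were not given in the sources used here. Members and lists were chosen with earlier results of these data known. Named genes are members with a score of 4 or more, with 2 or more peaks, the 8 most expressed without a peak, relatives that differ, and in each regulator list the 3 of highest score and the most expressed one without a peak. The other members were named after their values were seen. The value of 1 regulator is not reported here.

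Peaks were carried to GENCODE release 29 transcripts with a complete coding sequence by symbol, chromosome, strand, exon number, exon length and genomic span. Differences in the length of the first exon, or of the span after the last exon, gave the shift of the transcript start (at most 500 nt accepted). The method favours peaks in first and last exons. With a width of 200 nt for the start and stop segments, 98.3% of the 9249 carried peaks, and all 38 of RABs, fell in the segment the authors list. The start segment was read from the deposited position and the others from the GENCODE models. Agreement of start peaks, 10 of them in RABs, is therefore no check of the placement, and the other segments check it only coarsely. In 600 simulated rows, 95.9% of the 1200 peaks were carried to the right base. Each simulated row was a GENCODE transcript trimmed a little at its ends, and that transcript was always among the candidates. RAB transcripts had start shifts of up to 410 nt, so this value does not give the accuracy of the RAB sites. Motifs were searched on the transcript strand only. Printed site coordinates are GRCh38 and those of the table were not used. Python 3.11.15, pandas 2.3.3, SciPy 1.17.1 and Biopython 1.88 were used.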

Additional observations from a re-analysis of the deposited data

How the results depend on the processing

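Under each alternative tried, the shares and the median moved by less than their counting interval or 1 SD of the scores, apart from those named here. RAB peaks with DRACH, which also allows T as the first base, in place of RRACH within 50 nt came to 94.7%, and regulators with a peak of score 3 or more to 45.7%. The share of RAB transcripts with a peak ran from 32.8% (peaks of score 3 or more) to 48.1% (above the lowest quantile). Stop codon shares ran from 30.8% without RAB20 to 40.9%, and the median score from 3.09 to 3.59. Alternatives with 1 transcript per gene, without RAB20 or with a start shift of at most 50 nt (RRACH 80.8%) were chosen after seeing the data. Leaving out libraries was not possible, as no column belongs to one. No paired analysis was possible because the table holds no value per library.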

Other observations

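The 7 most expressed RAB genes without a peak carried few copies of GGACT, 1 form of RRACH. This count was looked at after the values above were seen. At quantiles of 0.8 or more, 15 RAB genes had a GENCODE transcript within 200 nt of the table's genomic span and were kept. RAB8A, RAB24, RAB3D, RAB9A and RAB21 were left out by this limit, and all of them have a peak outside the start. The GENCODE transcripts to which their peaks were carried held 3, 3, 9, 1 and 8 GGACT. The limit thus left out only genes of the marked side. Among those kept, the counts were as follows. RAB5C and RAB1A had no GGACT, and RAB1B, RAB11B, RAB13, RAB2A and RAB5B had 1 each. RAB7A and RAB10, with a start peak only, had 0. Of the 6 with a peak elsewhere, RAB34 had 6, RAB26 and RAB35 had 5 each, RAB40C had 4, RAB17 had 3 and RAB31 had 1. Genes with and without a peak thus shared counts of 0 and 1. Counts of 3 or more were seen in 5 of the 6 kept genes with a peak outside the start.

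Among the genes kept, transcript length differed as well, with a median of 1751 nt for the 7 unmarked and 2333 nt for the 6 marked elsewhere. GGACT came to 0.498 and 1.61 per kb. RRACH as a whole was at 12.7 and 12.5 per kb. Over all coding transcripts at these quantiles, 32.3% of 1067 without a peak and 62.9% of 2166 with a peak outside the start had 3 or more GGACT, and the densities were 0.988 and 1.11. At lower quantiles unmarked RABs with many GGACT were present, with 9 in RAB15 (0.580), 8 in RAB43 (0.584) and 6 in RAB6B (0.572). The relation was not tested.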
